A study of Mus musculus with 6 samples.

Results

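The 44 genes described here encode the alpha chains of the collagens, the triple-helical proteins of the extracellular matrix. They were taken by symbol from the 31763 genes of the deposited table, as every symbol made of "Col", a type number, the letter a and a chain number. The 44 genes belong to 27 collagen types, which were put into 9 classes by the structure that each type is known to build. RNA came from the medial prefrontal cortex (mPFC) of male wild-type C57BL/6J mice aged 8 to 10 weeks. One group of 3 samples had been given morphine at 10 mg/kg by intraperitoneal injection, paired with a chamber of a conditioned place preference apparatus, and the control group of 3 samples had been given saline at 10 ml/kg by the same route. Both groups were then kept in their home cages without drug and were taken for RNA-seq after a retrieval test, so the comparison asks which RNAs differ once the drug-paired place has been learned and the drug withdrawn. The sources used here do not say whether each sample came from 1 mouse, and p-values therefore measure the spread between these samples.

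Collagen chains are made as longer precursors, hydroxylated and glycosylated in the endoplasmic reticulum, wound in threes into a helix and then secreted, trimmed and cross-linked. Fibril-forming chains build the fibres of meninges and of the walls of larger vessels, while type IV chains build the sheet of the basement membrane that surrounds every brain capillary. Brain parenchyma is poor in fibrillar collagen. Several less common types, among them the transmembrane collagens and some FACITs (fibril-associated collagens with interrupted triple helices), are made by neurons and take part in synapse formation.

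Libraries were rRNA-depleted and directional, and held 17984153 to 23529592 counted reads. A filter of at least 10 counts in at least 3 libraries kept 18970 genes and 41 of the 44 collagen genes. Of these 41, 36 had at least 10 counts in all 6 libraries, and 0 passed through the libraries of 1 group alone. Markers of cortical projection neurons summed to 2039 to 2360 normalized CPM (TMM-scaled count shares, called CPM from here on) in the 6 libraries. Saline 1 stood apart, since all 10 olfactory bulb markers tested were over 2 times their level in any other library there. The sum over all 14 markers of that list was 370 CPM in saline 1, against 48.9 to 63.7 CPM elsewhere. Calls are therefore given with and without saline 1, and the plot of fold changes shows both values for each gene.

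No collagen gene differed between morphine and saline at an adjusted p under 0.05. That count was 0 of 41 in edgeR's quasi-likelihood F test, and it was 0 in edgeR without saline 1, where 0.996% of all genes tested passed. DESeq2 also gave 0 collagen genes, beside 16 of the 18970 genes tested. It set no adjusted p for Col13a1, Col9a1, Col28a1, Col4a4, Col6a6 and Col4a3. At an unadjusted p under 0.05 in edgeR, 3 collagen genes were lower in morphine, namely Col8a2, Col5a2 and Col7a1, and 0 were higher. DESeq2 gave 2, Col8a2 lower and Col6a4 higher, beside 594 lower and 380 higher of all 18970 genes. Over all 18970 genes edgeR placed 4.96% lower and 2.77% higher by the same rule and 0 at an adjusted p under 0.05. Without saline 1 the genes at an unadjusted p under 0.05 were 5, with Col19a1 and Col8a2 lower and Col1a1, Col6a4 and Col4a6 higher, against 7.53% lower and 4.14% higher over all genes. Col8a2 was the 1 gene in both sets.

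As a list, the collagen genes lay close to no change. Of the 41 tested, 24 had a log2 fold change (morphine over saline) below 0 and 17 above, with a median of -0.06, beside a median of -0.01 over all genes tested, of which 52.5% were negative. Without saline 1 the split was 19 below and 22 above with a median of 0.03, beside 0.00 and 48.6% negative over all genes. Leaving out this 1 library turned the sign of 11 members, 8 from lower to higher and 3 from higher to lower. Log2 fold changes ran from -0.94 for Col8a2 to 0.95 for Col4a3, and 19 of the 41 were within 0.2 of 0. The 95% interval of the fold change included 0 for 38 of 41 genes, and it reached 0.53 to either side of the estimate at the median.

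**Figure D1:**
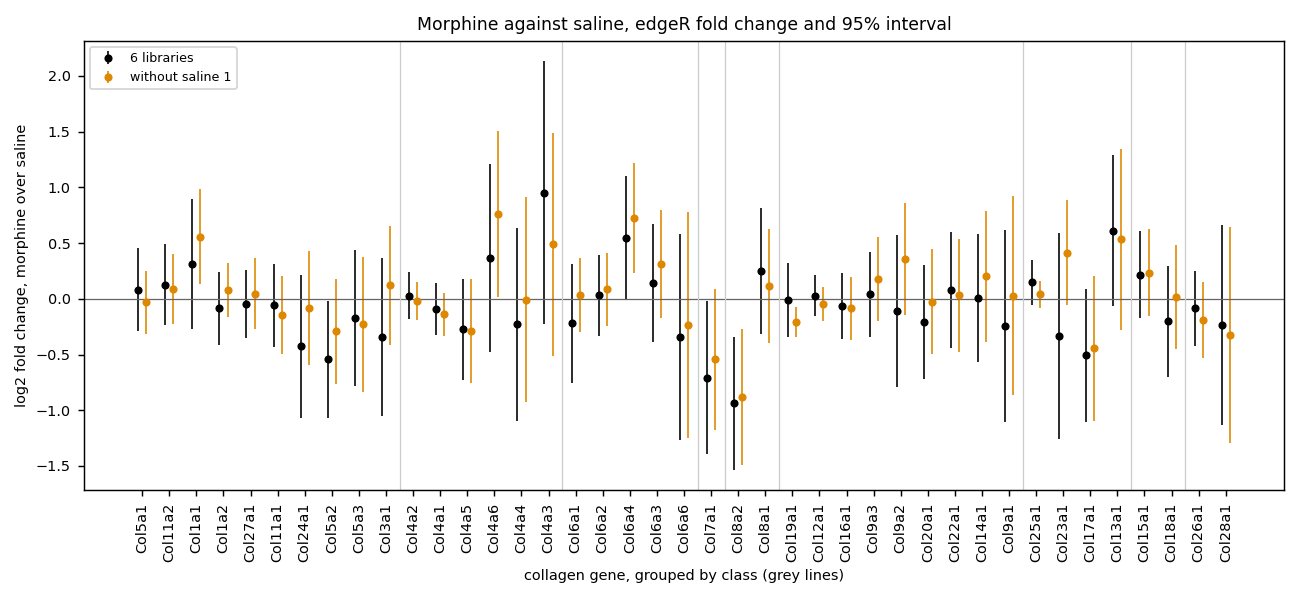
Log2 fold change of each of the 41 tested collagen genes (points) with its 95% interval (lines) from edgeR, on 6 libraries (black) and without saline 1 (orange). Grey lines part the classes, in the order fibrillar, basement membrane network, beaded filament, anchoring fibril, short-chain network, FACIT, transmembrane, multiplexin and other. Black intervals leave 0 for Col5a2, Col7a1 and Col8a2, and Col8a2 is the gene whose interval leaves 0 in both fits.

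Few of the 41 tested genes kept the groups apart in every library. In 6 libraries every morphine value was below every saline value for 2 of them, Col8a2 and Col17a1, where 7.32% of all genes did so. Every morphine value was above every saline value for 1 gene, Col13a1, against 5.98% of all genes. Without saline 1 these counts among the 41 were 4 (Col8a2, Col17a1, Col19a1 and Col26a1) and 2 (Col13a1 and Col1a1), beside 14.9% and 12.7% of all genes.

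Levels between genes are compared in FPKM, which divides by transcript length. The 44 genes together came to 63.0, 58.7 and 59.6 FPKM in saline 1, 2 and 3 and to 54.8, 68.1 and 53.1 FPKM in morphine 1, 2 and 3. The group means were 60.4 ± 2.26 and 58.7 ± 8.18 FPKM (SD, n = 3), so the groups overlapped and morphine 2 held the highest total. FACITs made up 25.2% of the summed FPKM on average over the 6 libraries, the basement membrane network 23.9%, beaded filament and fibrillar chains 15.7% each and transmembrane chains 14.2%. The multiplexins gave 2.17%, short-chain network collagens 1.5%, types XXVI and XXVIII 1.26% and the anchoring fibril chain 0.343%. Transcripts of a few genes carried most of the total, since Col4a2, Col6a1, Col19a1, Col25a1 and Col4a1 alone reached 58.1% of it. Their mean levels were 7.55, 7.41, 6.93, 6.85 and 5.86 FPKM, and the next, Col12a1, stood at 2.53 FPKM. The SD over the 6 libraries was 0.788 FPKM for Col4a2, 2.32 for Col6a1, 1.08 for Col19a1, 0.657 for Col25a1 and 0.699 for Col4a1, so the order of these 5 is not resolved beyond the spread, whereas Col12a1 was below each of them in every library.

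**Figure D2:**
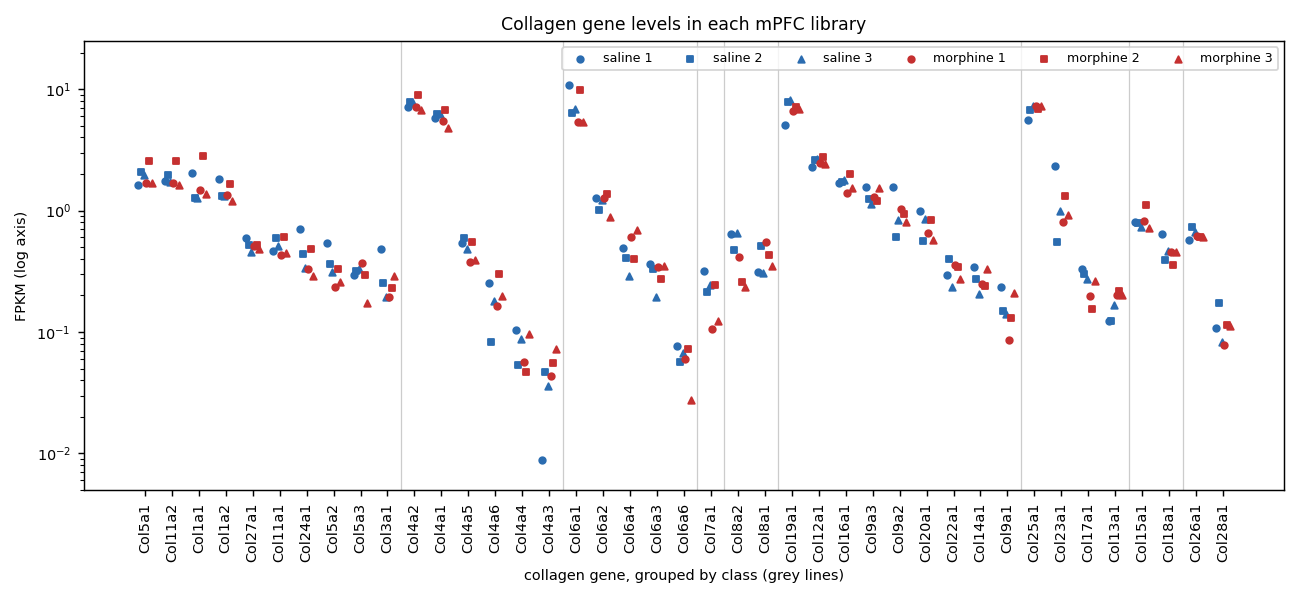
FPKM (log axis) of the 41 tested collagen genes in each library, with saline in blue and morphine in red and the marker shape giving the replicate. Grey lines part the classes, and genes fall by mean FPKM within each class. Col4a2, Col4a1, Col6a1, Col19a1 and Col25a1 stand above all others, and the 3 blue and 3 red points of most genes lie among each other.

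**Figure D3:**
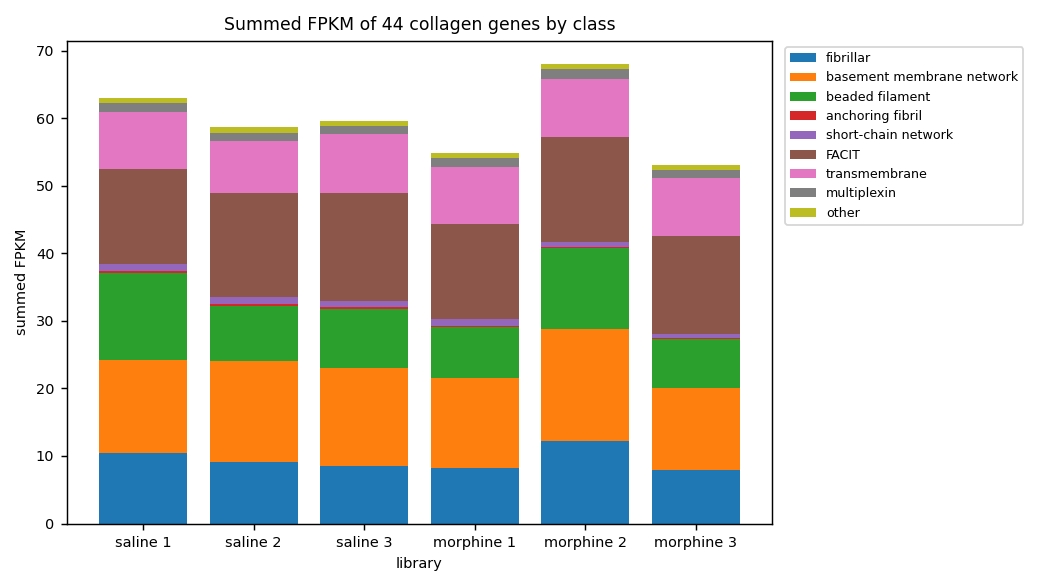
Summed FPKM of the 44 collagen genes in each library, stacked by class. Totals run from 53.1 in morphine 3 to 68.1 in morphine 2, and beaded filament chains are largest in saline 1 and morphine 2.

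Type IV chains, which form the network of the basement membrane, summed to 13.7, 14.9 and 14.6 FPKM in the saline libraries and to 13.2, 16.6 and 12.2 FPKM in the morphine libraries. Of the 6 genes, 3 had a fold change below 0 and 3 above. Col4a2, one of the chains of the ubiquitous network, was at 46.1, 51.9 and 50.5 CPM in saline 1 to 3 and at 47.7, 58.7 and 45.3 CPM in morphine 1 to 3. Its partner chain Col4a1 had 42.2, 47.1 and 46.1 CPM in saline and 41.4, 49.8 and 36.1 CPM in morphine. Both genes were highest in morphine 2, and the groups overlapped. In edgeR the log2 fold change was 0.03 (SE 0.10, 95% interval -0.18 to 0.24) for Col4a2 and -0.09 (SE 0.11, 95% interval -0.33 to 0.14) for Col4a1. Without morphine 2, Col4a1 came to -0.22 at an unadjusted p of 0.0322, a call that rests on the absence of that library.

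Col4a1 and Col4a2 are known to share a bidirectional promoter and to be wound into the same helix, 2 chains of the first with 1 of the second. On chromosome 8 (GRCm38) Col4a1 runs on the minus strand from 11312826 down to 11198423 and Col4a2 on the plus strand from 11312805 to 11449287, head to head, so that their first exons overlap by 22 bases. Col4a4 and Col4a3, chains of a network found in kidney and few other places, are also head to head, on chromosome 1 with 71 bases between them. The bases shared by the first pair and those between the second are shown as the places from which each pair is transcribed in both directions. Both are from RefSeq (GRCm38.p6), plus strand, chr8:11312805-11312826 and chr1:82586850-82586920, and capitals mark a GC box, the letters GGGCGG on either strand.
Col4a1-Col4a2: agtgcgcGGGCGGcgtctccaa
Col4a4-Col4a3: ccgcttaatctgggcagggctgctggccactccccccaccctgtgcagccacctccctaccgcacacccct
The first stretch holds a GC box at its base 8 and the second holds none of these letters. G and C make up 72.7% of the first and 69.0% of the second. Levels of the 2 pairs differed widely in how steadily they kept their ratio. The FPKM ratio of Col4a1 to Col4a2 was 0.811, 0.805 and 0.810 in saline and 0.769, 0.752 and 0.706 in morphine, a range of 1.15 times. That of Col4a3 to Col4a4 was 0.0852, 0.887 and 0.414 in saline and 0.774, 1.18 and 0.754 in morphine, a range of 13.9 times, on 2 to 17 counts of Col4a3 and 9 to 25 of Col4a4.

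Among the rarer type IV chains, Col4a5 and Col4a6 form the X-linked pair, head to head with 1308 bases between them. Col4a5 had 3.54, 4.01 and 3.22 CPM in saline and 2.54, 3.70 and 2.68 CPM in morphine, with a log2 fold change of -0.27 (SE 0.20). Col4a6 had 1.98, 0.660 and 1.43 CPM in saline and 1.33, 2.37 and 1.6 CPM in morphine. Saline 2 was the low library of Col4a6, at 14 counts, and the groups overlapped. Its log2 fold change of 0.37 (SE 0.38) in 6 libraries became 0.76 (SE 0.36) without saline 1, at an unadjusted p of 0.0449 and an adjusted p of 0.413 in edgeR. Col4a3 had the highest fold change of all members, 0.95 (SE 0.53), in 6 libraries, but at 2, 10 and 7 counts in saline and 8, 10 and 17 in morphine its unadjusted p in edgeR was 0.103. Without saline 1 its log2 fold change was 0.49 (SE 0.48), below those of Col4a6, Col6a4, Col1a1 and Col13a1. Of its exons, 563 bases lie opposite those of the transcript C430014B12Rik. Whether reads were counted by strand is not stated in the labels or methods, so reads of such partners cannot be told apart.

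Fibrillar chains, the building blocks of collagen fibres, gave 10.4, 9.16 and 8.46 FPKM in saline and 8.28, 12.2 and 7.85 FPKM in morphine. Of the 10 genes tested, 7 had a fold change below 0 and 3 above in 6 libraries, and 5 and 5 without saline 1. Their leading genes were Col5a1, Col11a2 and Col1a1. Col5a1, a type V chain that limits fibril diameter, had 13.4, 17.8 and 16.7 CPM in saline and 14.5, 21.7 and 14.6 CPM in morphine, at a log2 fold change of 0.08 (SE 0.17). Col11a2, a type XI chain of cartilage fibrils, had 11.7, 13.5 and 11.7 CPM in saline and 11.6, 17.4 and 11.4 CPM in morphine, at 0.13 (SE 0.16). In both genes morphine 2 was the highest library and the other morphine libraries lay within or just below the saline range. Col1a1, the main chain of type I collagen, had 13, 8.34 and 8.38 CPM in saline and 9.90, 18.2 and 9.09 CPM in morphine. Here saline 1 and morphine 2 were the high libraries of their groups. The log2 fold change of Col1a1 was 0.31 (SE 0.26) in 6 libraries, 0.56 (SE 0.20, unadjusted p of 0.0122, adjusted p of 0.242 in edgeR) without saline 1 and -0.07 without morphine 2, so that 1 library decides its sign. The other type I chain, Col1a2, which joins Col1a1 in the same helix, had 22.3, 16.5 and 16.3 CPM in saline and 16.8, 20.4 and 15.1 CPM in morphine. The FPKM ratio of Col1a1 to Col1a2 was 1.10, 0.955 and 0.970 in saline and 1.12, 1.69 and 1.14 in morphine, again highest in morphine 2.

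Col5a2 was the fibrillar gene at an unadjusted p under 0.05. This type V chain had 5.05, 3.49 and 2.96 CPM in saline and 2.27, 3.15 and 2.51 CPM in morphine, from 41 to 117 counts. Saline 1 was well above the rest, and morphine 2 lay above saline 3. Its log2 fold change was -0.54 (SE 0.24, unadjusted p of 0.0444, adjusted p of 0.636 in edgeR), and it was -0.29 (SE 0.23, unadjusted p of 0.213) without saline 1. The ratio of Col5a1 to Col5a2 in FPKM was 3.00 in saline 1, against 5.77 and 6.35 in the other saline and 7.22, 7.79 and 6.56 in the morphine libraries. Col3a1, the chain of reticular fibres, was similarly high in saline 1, at 4.62 CPM against 1.89 to 2.90 CPM in the others, and its log2 fold change went from -0.34 (SE 0.32) to 0.12 (SE 0.26) without that library. The remaining fibrillar genes tested, Col11a1, Col27a1, Col24a1 and Col5a3, had log2 fold changes of -0.06, -0.05, -0.43 and -0.17 in 6 libraries and of -0.14, 0.04, -0.08 and -0.23 without saline 1. Col2a1, the collagen of cartilage, did not pass the filter, with 21, 4 and 8 counts in saline and 5, 21 and 8 in morphine.

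Beaded filament collagen, type VI, forms fine microfibrils next to basement membranes and around cells. It varied most among the abundant classes, at 13, 8.20 and 8.68 FPKM in saline and 7.64, 11.9 and 7.31 FPKM in morphine. Col6a1 carried most of this, with 46.2, 28 and 30.2 CPM in saline and 23.6, 42.7 and 23.7 CPM in morphine. Saline 1 and morphine 2 stood above the other 4 libraries, which lay between 23.6 and 30.2 CPM. The log2 fold change of Col6a1 was -0.22 (SE 0.24) in 6 libraries, 0.04 (SE 0.16) without saline 1 and -0.56 (SE 0.20, unadjusted p of 0.0233) without morphine 2. Col6a2, which lies beside Col6a1 on chromosome 10 and joins it in the type VI helix, showed less of this, at 10.3, 8.39 and 10.1 CPM in saline and 10.7, 11.3 and 7.49 CPM in morphine, with a log2 fold change of 0.03 (SE 0.16). The FPKM ratio of Col6a1 to Col6a2 ran from 4.17 in morphine 1 to 8.52 in saline 1, a range of 2.04 times.

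Col6a4, one of the later described type VI chains, had 4.10, 3.49 and 2.45 CPM in saline and 5.20, 3.37 and 6.06 CPM in morphine. Morphine 1 and 3 were above all saline libraries and morphine 2 was below saline 2. Its log2 fold change was 0.54 (SE 0.25, unadjusted p of 0.0549, adjusted p of 0.638 in edgeR), and 0.72 (SE 0.24, unadjusted p of 0.0060, adjusted p of 0.176) without saline 1. DESeq2 gave it an unadjusted p of 0.0428. Col6a3 and Col6a6 had log2 fold changes of 0.14 and -0.34 (0.31 and -0.24 without saline 1), and Col6a5, a neighbour of Col6a4 and Col6a6 on chromosome 9, did not pass the filter, with 7, 9 and 4 counts in saline and 10, 1 and 7 in morphine.

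Col8a2 and Col8a1 encode the chains of type VIII collagen, a short-chain collagen that forms hexagonal lattices under the corneal endothelium and in vessel walls. Col8a2 (chromosome 4, 126286793 to 126314330, plus strand, GRCm38) had the lowest log2 fold change of all members. It was at 2.80, 2.12 and 2.91 CPM in saline and at 1.88, 1.16 and 1.08 CPM in morphine, from 65, 45 and 57 counts and from 34, 21 and 25 counts. Every morphine library was below every saline library, with group means of 2.61 ± 0.429 and 1.37 ± 0.440 CPM (SD, n = 3). In bulk tissue, fewer cells of a type and less RNA per cell cannot be told apart. The log2 fold change was -0.94 (SE 0.27, 95% interval -1.53 to -0.34), with an unadjusted p of 0.0057 and an adjusted p of 0.586 in edgeR. Without saline 1 it was -0.88 (SE 0.29, unadjusted p of 0.0067, adjusted p of 0.185). Over all 13 alternative settings the unadjusted p of Col8a2 stayed under 0.05, and no setting gave an adjusted p under 0.05.

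Its partner Col8a1 gave no such difference, at 2.42, 4.01 and 2.40 CPM in saline and 4.37, 3.37 and 2.81 CPM in morphine. The log2 fold change of Col8a1 was 0.25 (SE 0.26, 95% interval -0.32 to 0.82). Set against each other in FPKM, Col8a2 was 2.03, 0.924 and 2.12 times Col8a1 in saline and 0.751, 0.601 and 0.671 times Col8a1 in morphine, so that the ratio was above each morphine value in every saline library. Such separation was not particular to type VIII. The ratio of Col4a1 to Col4a2 was also lower in every morphine library. Those of Col1a1 to Col1a2 and Col5a1 to Col5a2 were higher in every morphine library. The other pairs compared, such as Col6a1 with Col6a2 and Col4a3 with Col4a4, overlapped. How often gene pairs separate over all genes was not computed. Col10a1, the short-chain collagen of growth plate cartilage, did not pass the filter, with 7, 3 and 2 counts in saline and 1, 1 and 0 in morphine.

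Col7a1, whose product forms the anchoring fibrils below epithelia, was the third gene at an unadjusted p under 0.05. It had 3.19, 2.22 and 2.5 CPM in saline and 1.11, 2.48 and 1.3 CPM in morphine. Morphine 1 and 3 were below all saline libraries and morphine 2 lay within the saline range. Between the groups the log2 fold change was -0.71 (SE 0.31, unadjusted p of 0.0440, adjusted p of 0.636 in edgeR) and -0.54 (SE 0.31, unadjusted p of 0.0891) without saline 1. Col5a2 and Col7a1 each lost their unadjusted p under 0.05 in 8 of the 13 alternatives, DESeq2 among them.

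**Figure D4:**
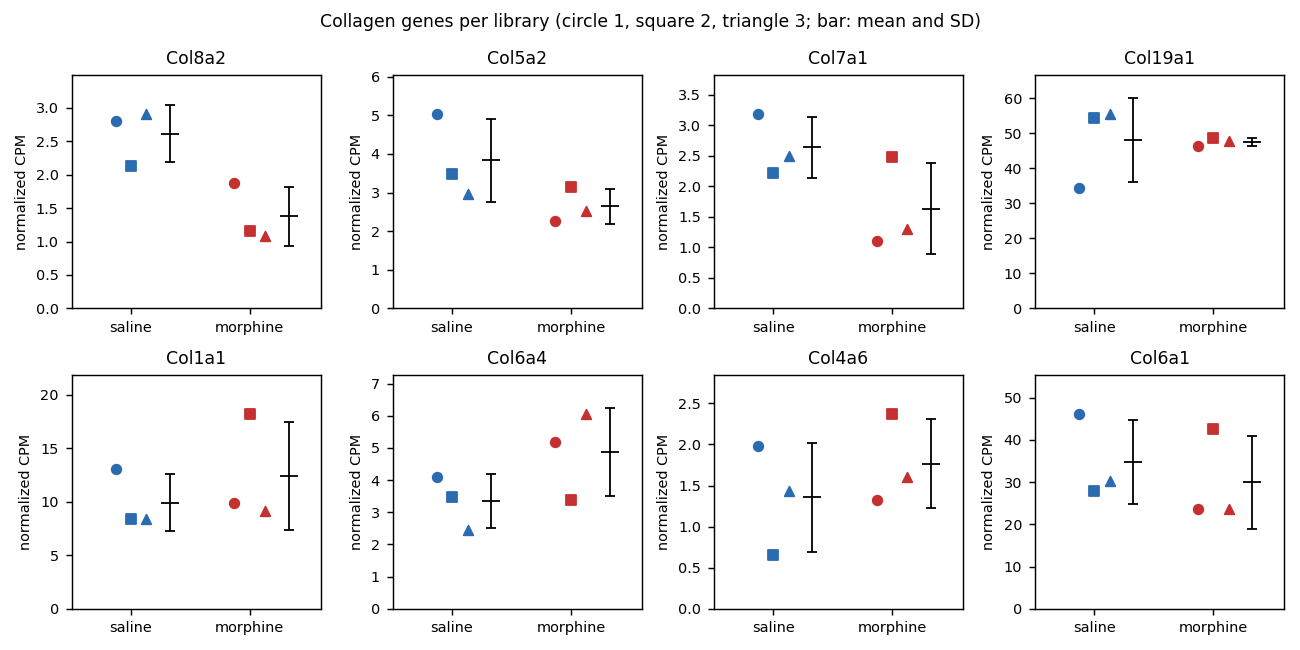
Normalized CPM per library of the 7 collagen genes at an unadjusted p under 0.05 with or without saline 1, and of Col6a1, with saline in blue and morphine in red. Marker shapes give the replicate (circle 1, square 2, triangle 3), and the bar beside each group is its mean with the SD. The groups of Col8a2 do not overlap, while the circle of saline 1 lies away from the other blue points in Col5a2, Col19a1, Col1a1 and Col6a1.

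FACIT collagens, which sit on the surface of fibrils or act at synapses, gave 14, 15.5 and 15.9 FPKM in saline and 14.1, 15.6 and 14.5 FPKM in morphine. Col19a1, a neuronal FACIT that interneurons are known to express and that is needed for inhibitory synapses, was the leading member, at 34.2, 54.4 and 55.6 CPM in saline and 46.2, 48.6 and 47.8 CPM in morphine. Saline 1 was the lowest of the 6 libraries and the other saline libraries the highest, with all morphine libraries between. Its log2 fold change was thus -0.01 (SE 0.15) in 6 libraries and -0.21 (SE 0.06, 95% interval -0.34 to -0.08, unadjusted p of 0.0035, adjusted p of 0.136 in edgeR) without saline 1. In saline 1 the summed level of 8 interneuron markers was 1022 CPM, against 567 to 625 CPM elsewhere. Only 4 of the 8 were highest there, and 1 was over 2 times its level in any other library. The sum went in the opposite direction to Col19a1, and its part in the result was not tested. Col12a1, a FACIT of dense connective tissue, had 34.4, 40.2 and 40.4 CPM in saline and 37.8, 41.9 and 37.3 CPM in morphine. It was among the steadiest members, at a log2 fold change of 0.03 (SE 0.08, 95% interval -0.16 to 0.21). Col16a1, which joins fibrils to their surroundings, had 11.3, 11.6 and 12.1 CPM in saline and 9.51, 13.4 and 10.6 CPM in morphine, at -0.06 (SE 0.13). The other 6 FACIT genes had log2 fold changes from -0.24 for Col9a1 to 0.08 for Col22a1. Among them Col9a2 turned from -0.11 to 0.36 once saline 1 was left out, a library in which it had 4.74 CPM against 1.89 to 3.21 CPM elsewhere. For Col9a3, at 0.04 (SE 0.17), 234 bases of exon lie opposite exons of Tcfl5.

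Transmembrane collagens are anchored in the cell membrane and can be shed. They summed to 8.38, 7.70 and 8.74 FPKM in saline and to 8.48, 8.61 and 8.65 FPKM in morphine. Col25a1, a neuronal member whose shed form binds amyloid plaques, made up most of this, at 71.1, 87.4 and 94.5 CPM in saline and 95.3, 88.7 and 95.9 CPM in morphine. Saline 1 lay below the other 5 libraries, and the log2 fold change was 0.15 (SE 0.09) with it and 0.04 (SE 0.06, 95% interval -0.08 to 0.16) without it. Col23a1 was the member most set by saline 1, at 13.2, 3.16 and 5.67 CPM in saline and 4.70, 7.56 and 5.32 CPM in morphine. Its log2 fold change turned from -0.33 (SE 0.41) to 0.41 (SE 0.23, unadjusted p of 0.0818 in edgeR) without that library. Col17a1, the hemidesmosome collagen, had 1.85, 1.74 and 1.58 CPM in saline and 1.16, 0.883 and 1.56 CPM in morphine, from 16 to 43 counts. The groups did not overlap, by a small margin between saline 3 and morphine 3, and the log2 fold change was -0.51 (SE 0.27, unadjusted p of 0.0884). Col13a1, a collagen of the neuromuscular junction, was the 1 member with every morphine value above every saline value. It had 0.561, 0.566 and 0.766 CPM in saline and 0.940, 0.993 and 0.952 CPM in morphine, from 12 to 22 counts, at 0.61 (SE 0.31, unadjusted p of 0.0728).

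Multiplexins are proteoglycan collagens of basement membranes, and the end fragment of Col18a1 is endostatin, an inhibitor of vessel growth. Col15a1 had 5.0, 5.0 and 4.6 CPM in saline and 5.31, 7.06 and 4.67 CPM in morphine, at a log2 fold change of 0.22 (SE 0.18). Col18a1 had 4.40, 2.73 and 3.27 CPM in saline and 3.26, 2.48 and 3.29 CPM in morphine, at -0.20 (SE 0.22) in 6 libraries and 0.01 (SE 0.23) without saline 1. Neither gene separated the groups. Of the types outside these classes, Col26a1 had 4.57, 5.99 and 5.47 CPM in saline and 5.14, 4.91 and 5.02 CPM in morphine, at -0.09 (SE 0.15). Col28a1, a collagen of peripheral nerve, had 7 to 18 counts per library and a log2 fold change of -0.23 (SE 0.40), with saline 2 over 1.5 times the next library.

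Collagen genes were most often highest in 2 libraries, 1 of each group. Saline 1 was the highest library for 17 of the 41 genes and morphine 2 for 12, where over all genes tested saline 1 was highest for 24.9% and morphine 2 for 14.2%. Relative to each gene's mean, the median log2 level of the 41 genes was 0.18 in saline 1 and 0.12 in morphine 2, and -0.14 to 0.03 in the other 4 libraries. Over all genes tested it was within 0.01 of 0 in every library. Genes highest in saline 1 included Col6a1, Col1a2, Col3a1, Col5a2, Col6a3, Col7a1, Col14a1 and Col23a1, and those highest in morphine 2 included Col4a1, Col4a2, Col5a1, Col11a1, Col11a2, Col12a1, Col15a1 and Col1a1.

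Marker sums of cells that make collagen stood out in saline 1 for meningeal fibroblasts and in morphine 2 for endothelium. In saline 1 the 12 meningeal fibroblast markers summed to 83.9 CPM, against 47.5 to 60.6 CPM in the others, and 9 of the 11 tested were highest there. In morphine 2 the 12 endothelial markers summed to 263 CPM, against 223 to 236 CPM, and 6 of 12 were highest there. The endothelial sum in saline 1, 233 CPM, and the meningeal sum in morphine 2, 56.9 CPM, lay within the range of the other libraries. Mural cell markers ranged from 176 to 202 CPM, with morphine 2 at the top and saline 1 at 195 CPM. The 9 choroid plexus markers summed to 12.6 CPM in saline 1 and 4.6 to 7.24 CPM elsewhere, of which Aqp1 gave 7.12 CPM in saline 1. Of the other choroid plexus markers, Ttr was highest in morphine 1, at 33 counts against 2 to 11 elsewhere, Clic6 was highest in saline 1, at 18 counts against 0 to 4, and Otx2 and Folr1 had 0 to 4 counts in each library. Of the 41 tested collagen genes 2, Col3a1 and Col23a1, were over 1.5 times any other library in saline 1, against 2.40% of all genes tested. The part of these cell types in the collagen differences was not tested.

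**Figure D5:**
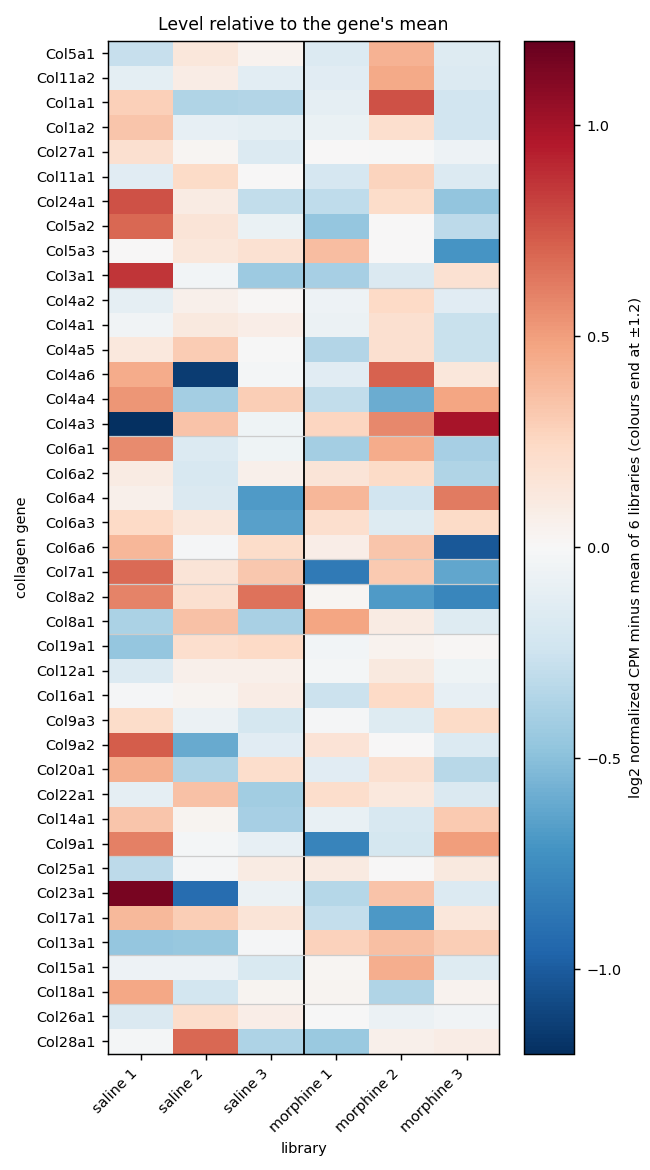
Log2 normalized CPM of the 41 tested collagen genes (rows, grouped by class) in each library (columns), less the mean of the gene over the 6 libraries. Red is above and blue below the mean, and colours end at 1.2 on either side. Saline 1 is the highest library in 17 rows and morphine 2 in 12, and the row of Col8a2 is red in saline 1 and 3 and blue in morphine 2 and 3.

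Genes that make, process, bind or degrade collagen were read from the same fit. Of 77 tested, 6 were lower and 1 higher in morphine at an unadjusted p under 0.05, 0 passed the adjusted threshold, and the shares over all genes were the 4.96% and 2.77% given above. Among 20 genes of modification and folding, 1 was lower, Plod2, a lysyl hydroxylase, at a log2 fold change of -0.35 (SE 0.15). Its values were 9.79, 6.84 and 8.07 CPM in saline and 6.14, 6.57 and 6.71 CPM in morphine, and without saline 1 its log2 fold change was -0.20 (SE 0.15, unadjusted p of 0.207 in edgeR). Among 11 genes of processing and cross-linking, 1 was lower, the procollagen protease Tll1, at -0.92 (SE 0.39). Tll1 had 231 counts in saline 1 and 51 to 88 in each other library, and its log2 fold change was -0.27 (SE 0.24) without saline 1. None of the 9 degradation genes tested, metalloproteases, their inhibitors and the protease Ctsk, was at an unadjusted p under 0.05 in 6 libraries.

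Among 9 receptors, 2 were lower and 1 higher. The inhibitory receptor Lair1, found on immune cells, had 13.2, 14.3 and 14.2 CPM in saline and 10.6, 12.4 and 12.1 CPM in morphine, without overlap, at -0.25 (SE 0.10). Mrc2, an endocytic receptor that takes up collagen fragments, was at -0.42 (SE 0.14), with saline 1 highest at 16.4 CPM, and at -0.25 (SE 0.12, unadjusted p of 0.0534 in edgeR) without that library. The integrin chain Itga11 had 2.24, 2.12 and 1.53 CPM in saline and 2.93, 2.76 and 2.90 CPM in morphine, at 0.54 (SE 0.21). Among 17 basement membrane partners, the laminin chain Lama3 was lower, at 26.6, 20.7 and 20.9 CPM in saline and 18.8, 17 and 15.6 CPM in morphine, without overlap and at -0.41 (SE 0.12). Among 11 fibril partners, Fbn1, the microfibril protein fibrillin, was lower, at 17.5, 20.9 and 21.4 CPM in saline and 16.8, 14.4 and 16.4 CPM in morphine, at -0.32 (SE 0.11). The groups did not overlap for Plod2, Mrc2, Itga11 and Fbn1 either, and overlapped for Tll1. Over all genes tested, 7.32% were lower and 5.98% higher in morphine without overlap. Without saline 1, an unadjusted p under 0.05 was reached by 4 of 76 pathway genes on the higher side and 4 on the lower. Over all genes tested the shares were 4.14% higher and 7.53% lower. Fbn1 alone passed the adjusted threshold in edgeR, at -0.41 (SE 0.10) with an adjusted p of 0.0477, where 0.996% of all genes tested passed.

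In the genome some collagen genes also lie in tail-to-tail pairs, as Col3a1 and Col5a2 do with 24614 bases between them on chromosome 1. Both of these were highest in saline 1. Col9a1 and Col19a1, tail to tail on the same chromosome at 9205 bases, went apart, since Col9a1 was highest in saline 1 and Col19a1 lowest. RefSeq promoter windows (250 bases before to 50 after the start, GRCm38.p6) were given for 35 of the 44 genes, 38 windows in all. On either strand, 60.5% of these windows held the GC box GGGCGG, against 35.7% of all 32851 windows, 34.2% held CCAAT against 37.4%, and 13.2% held TATAAA against 13.6%. Some collagen windows overlap, as those of Col4a1 with Col4a2 and those of Col6a2, so shared bases count more than once. Median GC content was 59.8% in the collagen windows and 52.7% in all. The Col8a2 window was GC rich, at 71.7%, and held a GC box but neither of the other motifs.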

How the data were processed

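RNA of 6 mPFC samples was sequenced, 3 saline and 3 morphine, grouped and numbered by their labels. The authors deposited a single table that gives each gene, in each library, a whole-number read count without normalization and an FPKM. Per the labels, the tools were HTSeq 0.11.2, HISAT2 2.1.0, cutadapt 1.9.3, limma 3.40.6, DESeq 1.8.3, DESeq2 1.26.0 and StringTie 1.3.3, on mm10. For 13342 well-covered genes (50 or more counts throughout) the authors' FPKM was found to be the count rescaled by gene length and by library. Library totals of 17984153 to 23529592 leave genes of a few counts imprecise.

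Genes reaching 10 counts in 3 or more libraries, 18970 in all, entered a TMM-scaled quasi-likelihood F test (edgeR 4.0.16, R 4.3.3), two-sided, of morphine against saline, with Benjamini-Hochberg adjustment over all of them. DEGseq, which the study used, takes no spread between replicates and was not run. Tested on simulated data, edgeR, DESeq2 and limma each made more false calls at an adjusted p under 0.05 than that threshold allows. Intervals are 95%. Alternatives were DESeq2 1.42.0, RLE factors, other count filters, a replicate block, limma 3.58.1 on log2(FPKM + 0.1) and log2(FPKM + 1), and each library left out. Positions come from GENCODE M21, in which all 44 members were found.

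The members, classes and lists were chosen with earlier results of these data known. Named are the 3 members of highest FPKM in each class, those at an unadjusted p under 0.05 with or without saline 1, and pathway genes at that p in 6 libraries. Other members are named for a value seen afterwards. Replicates of a group differed by 2.91 to 14.7 times sampling noise (chi-square over degrees of freedom). One further fit, without saline 1 and morphine 2 together, was tried after the data had been seen and put some collagen genes past the adjusted threshold. It is not reported, because morphine 2 had been picked for its collagen levels, which selects samples by the outcome.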

Additional observations from a re-analysis of the deposited data

How the results depend on the processing

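The counts at an unadjusted p under 0.05 moved with single libraries and filters. The median log2 fold change of the collagen genes, -0.06 in 6 libraries, ran from -0.11 without morphine 2 to 0.03 without saline 1. All values were within 0.12 of it, the SD of the library medians within groups. That SD is larger than the median itself, so staying within it does not show that size or sign was kept. With each library left out in turn, collagen genes at that p numbered 1 to 6, pathway genes 3 to 9 and all genes 748 to 2179. The highest collagen count, 6, came without morphine 2 (Col4a1, Col5a2, Col6a1, Col6a4, Col7a1 and Col8a2) and the lowest, 1, without morphine 1 (Col8a2). Col24a1 and Col25a1 reached that p without saline 3 and Col17a1 without morphine 3. Col5a2 lost it without saline 1, saline 2, morphine 1 or morphine 3, at log2 fold changes of -0.69 to -0.29 over the libraries left out, and Col7a1 without saline 1, saline 3, morphine 1 or morphine 3, at -1.13 to -0.50. The lowest pathway count, 3, and the lowest count of all genes, 748, came without morphine 3. With no filter on low counts, collagen genes numbered 6 and all genes 2499, against 3 and 1465 as reported. In that setting 2 of 85 pathway genes, Lama3 and Tll1, passed the adjusted threshold of edgeR, beside 279 of all 31763 genes. Tll1 had 231 counts in saline 1 and 51 to 88 in each other library. DESeq2 gave 974 genes in all and 4 pathway genes against 7 as reported. Limma gave 1 collagen gene and 2 pathway genes on log2(FPKM + 0.1), and again 1 and 2 on log2(FPKM + 1). The cause of these moves was not tested.
Of the 24 members followed with each library left out in turn, 14 took both signs. The ranges were -0.21 to 0.11 for Col19a1, -0.068 to 0.56 for Col1a1, -0.091 to 0.10 for Col4a2, -0.22 to 0.014 for Col4a1, -0.56 to 0.038 for Col6a1, -0.081 to 0.20 for Col6a2 and -0.046 to 0.069 for Col12a1. They were -0.21 to 0.039 for Col16a1, -0.13 to 0.18 for Col5a1, -0.10 to 0.24 for Col11a2, -0.35 to 0.015 for Col18a1, -0.19 to 0.0045 for Col26a1, -0.42 to 0.11 for Col28a1 and -0.70 to 0.41 for Col23a1.
Same-numbered samples of the 2 groups did not deviate together (correlations of 0.02, 0.01 and -0.05). The labels link them only by number, and with 3 samples per group the correlations cannot exclude another link. The replicate block left 1 collagen gene, Col8a2, at an unadjusted p under 0.05, and 1315 genes in all, and gave Col19a1 a log2 fold change of 0.012.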
